A study of Saccharomyces cerevisiae with 31 samples.

Results

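The transcripts followed here are those of 10 genes of glycogen synthesis and breakdown in Saccharomyces cerevisiae: the glycogen synthase genes GSY1 and GSY2, the branching enzyme gene GLC3, the glycogenin genes GLG1 and GLG2, the phosphorylase gene GPH1, the debranching enzyme gene GDB1, and GAC1, PIG1 and PIG2, which encode subunits that bring a protein phosphatase to the synthase. They were chosen by gene symbol in the array annotation, and each of the 10 matched 1 probe set, out of 5449 S. cerevisiae genes on the array. They form 5 synthesis enzymes, 2 breakdown enzymes and 3 phosphatase subunits. Strain CEN.PK122 was grown in aerated continuous culture, where its metabolism swung without outside prompting between a respiratory and a reductive state in cycles of 2 h, tracked through dissolved oxygen. Total RNA came from 31 samples 4 min apart, 12.53 to 14.53 h into the run, each on 1 Affymetrix Yeast 2.0 array and each labelled with a phase angle, from 5.93 to 362.01 degrees. All arrays form 1 group without controls or replicates of an angle, treated here as 1 culture over 1 cycle, and no label ties an angle to the respiratory or the reductive state.

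Glycogen is a branched polymer of glucose that yeast lays down when carbon is plentiful relative to growth and uses when supply fails or growth resumes. Glycogenin starts a chain, glycogen synthase lengthens it from UDP-glucose and the branching enzyme adds branches, while phosphorylase releases glucose phosphate from chain ends and the debranching enzyme removes the stubs that remain. Synthase is switched off by phosphorylation and switched on by the phosphatase Glc7, which Gac1 and related subunits direct to glycogen. Arrays measure transcripts and neither enzyme activity nor glycogen itself, and in RNA from a whole culture a change in the level per cell and in the share of cells that express a gene cannot be told apart.

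Values are normalized intensities on the scale of the deposited signals, or their log2, and levels are compared only within a gene. As deposited, the arrays' median intensities over S. cerevisiae probe sets differed, with 1056 the lowest and 2142 the highest, a span of 1.02 on the log2 scale that quantile normalization removed, so all changes are relative to the other transcripts. The ratio of poly-A spike controls to hybridization spikes fell in 2 separate groups, called batch 1 (16 arrays, log2 ratios of -4.37 to -3.68) and batch 2 (15 arrays, -5.41 to -4.78), which follow the array numbers that the labels give without explaining them. Batch 1 held no array between 5.93 and 53.41 degrees, so the lowest value of all 10 genes lay on batch 2 arrays, as did the highest value of 8 of them. The arrays at 41.54, 172.09, 124.62, 148.35 and 136.48 degrees were the dimmest as deposited, with medians of 1056 to 1204. Precision is limited by the number of arrays.

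Each of the 10 genes varied with phase, and 9 of them by 2-fold or more in the fitted peak-to-trough range. Variation was tested with limma's moderated F-test of the cosine and sine of the angle, with Benjamini-Hochberg adjustment over 5422 probe sets, and 89.1% of all probe sets passed at an adjusted p under 0.05, so passing alone does not set these genes apart. A range of 2-fold or more was reached by 23.1% of all probe sets. The median fitted range was 1.90 on the log2 scale over the 10 genes and 0.54 over all probe sets tested, and 9 of the 10 genes lay above percentile 85 of all ranges. These counts are descriptions of a chosen set. The genes were lowest at 29.67 degrees (4 genes) or 41.54 degrees (6 genes), and 8 of them were highest between 112.75 and 148.35 degrees.

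**Figure D1:**
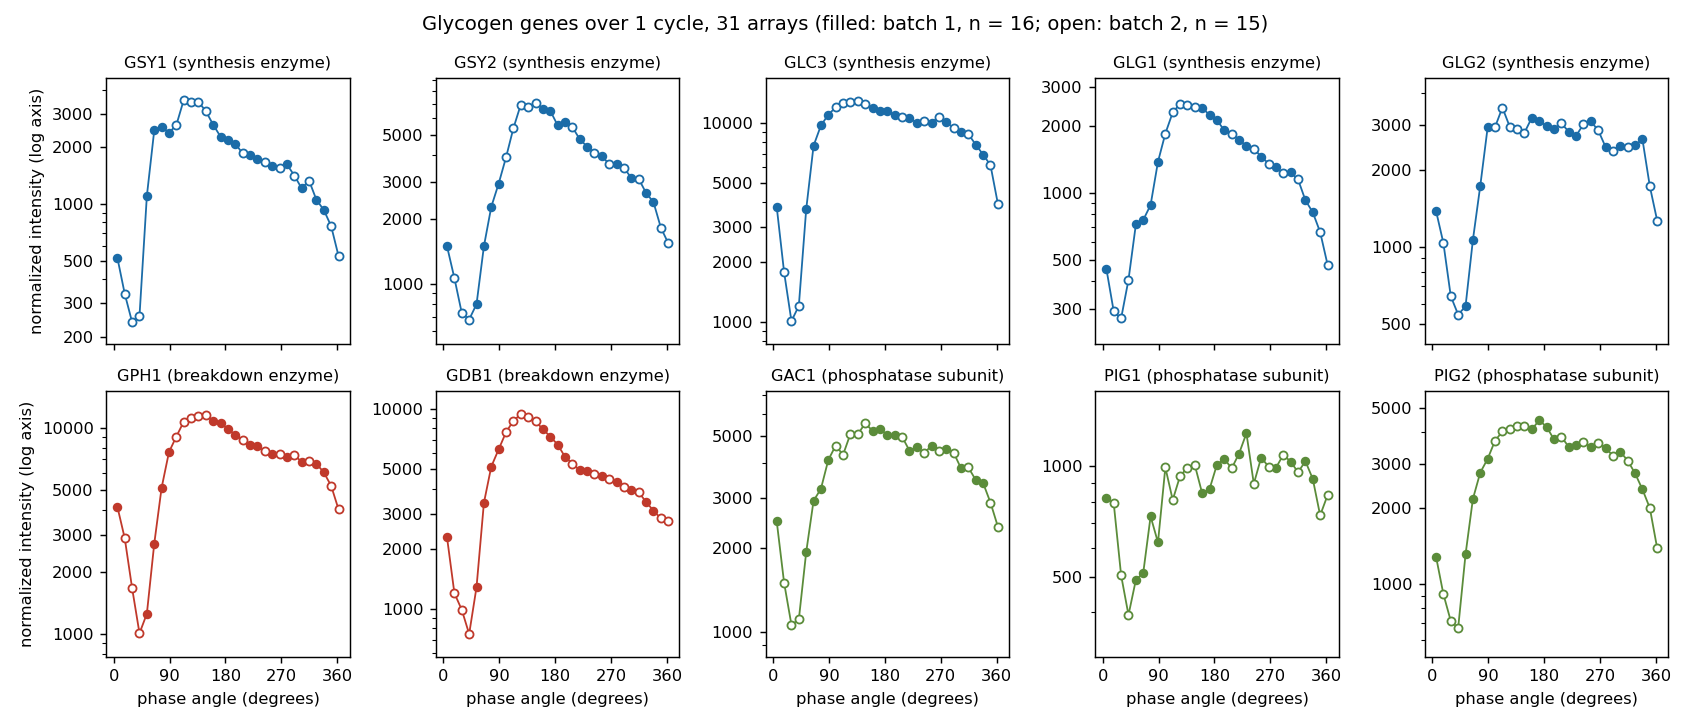
Normalized intensity (log axis) of each of the 10 genes against the phase angle in degrees, 1 point per array, with filled points for batch 1 (16 arrays) and open points for batch 2 (15 arrays). Every gene has its lowest array at 29.67 or 41.54 degrees, and all except PIG1 climb steeply to a maximum between 112.75 and 172.09 degrees and then decline.

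Within batches the genes also passed, 10 of 10 in each, against 77.1% and 83.2% of all probe sets. The median range over the 10 genes was 1.34 in batch 1, which lacks the arrays of the trough, and 2.52 in batch 2, which holds them. GLC3 depended most on this: its range was 1.05 ± 0.24 within batch 1 and 2.95 ± 0.62 within batch 2, against 1.92 ± 0.35 over all arrays (SE). Residuals of neighbouring arrays were correlated, with a median of 0.645 over all probe sets and 0.44 to 0.86 over the 10 genes, so the SEs and p-values, which take arrays as independent, may be too small. With terms at 2 and 3 times the angle also fitted, the median over all probe sets was 0.07. How much of the correlation comes from profiles sharper than 1 cosine was not tested. With serially correlated arrays 9 of the 10 genes passed, against 53.8% of all probe sets. The exception was PIG1, with a range of 0.85 and an adjusted p of 0.0669 in limma, within a span of 6.19e-06 to 0.0669 over its alternatives.

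**Figure D2:**
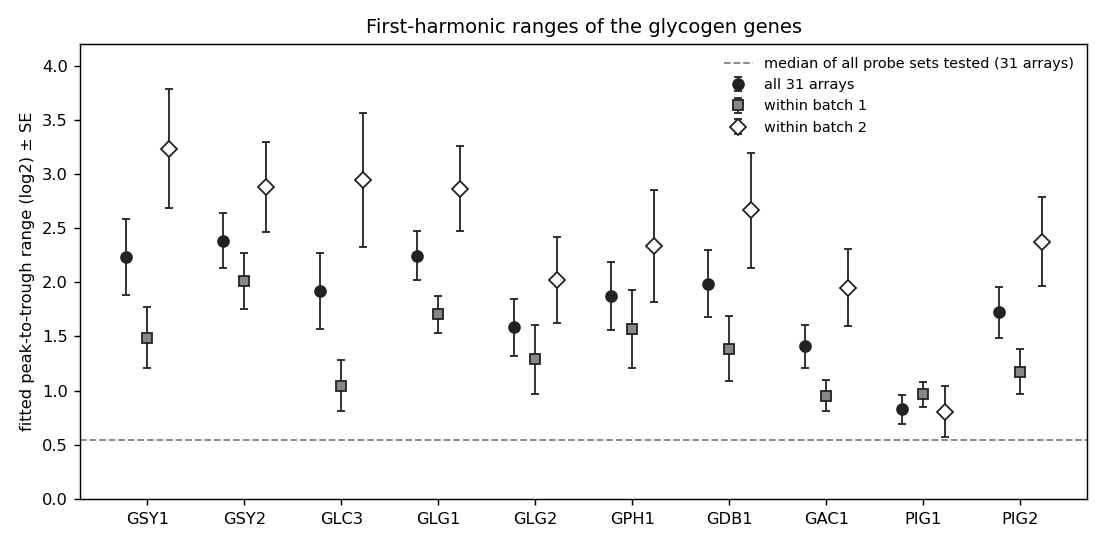
Fitted peak-to-trough range (log2) with its SE for each gene over all 31 arrays (circles), within batch 1 (squares) and within batch 2 (diamonds), with the median of all probe sets tested as a dashed line at 0.54. Ranges within batch 2 exceed those within batch 1 for every gene except PIG1, and all points lie above the dashed line.

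The synthase genes were taken first. GSY1, for the synthase isoform that accounts for less of the activity in stationary cells, had a lowest normalized intensity of 238 at 29.67 degrees, a median of 1668 and a highest of 3536 at 112.75 degrees. GSY2, for the major isoform, was lowest at 41.54 degrees with 678, had a median of 3634 and was highest at 148.35 degrees with 7079. GSY1 thus spanned 14.9-fold and GSY2 10.4-fold between their extreme arrays, and GSY1 reached its highest array earlier.

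The isoforms differed most on the way up. GSY1 had a normalized intensity of 257 at 41.54 degrees, 1104 at 53.41 degrees and 2442 at 65.28 degrees, a step of 2.11 on the log2 scale in the first 4 min, across a change of batch, and a further rise within batch 1. GSY2 had 678, 800 and 1495 at the same angles and made its largest step, 0.90 on the log2 scale, between the last pair of them. At 65.28 degrees GSY1 stood at 69.1% of its own highest value and GSY2 at 21.1% of its own. GSY1 then held between 2375 and 2609 up to 100.88 degrees before its maximum, so its rise had a first fast part and a shoulder, whereas GSY2 climbed at every array up to 124.62 degrees.

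In the fit of 1 cosine per cycle, GSY1 had a range of 2.23 ± 0.35 on the log2 scale with a peak at 171 ± 9.1 degrees (SE, n = 31 arrays, adjusted p = 5.11e-06, limma), and GSY2 of 2.38 ± 0.25 with a peak at 194.6 ± 6.16 degrees (SE, adjusted p = 1.04e-08, limma). Within batches 1 and 2 the range was 1.49 and 3.23 for GSY1, and 2.01 and 2.88 for GSY2. GSY2 had the largest range of the 10 genes, rank 216 of 5422.

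GLC3, the branching enzyme gene, was lowest at 29.67 degrees with a normalized intensity of 1009, had a median of 10014 and was highest at 136.48 degrees with 12856. It had a broad top: 13 of 31 arrays lay at or above 80% of its highest value, as did 14 for GLG2 and PIG1 and 12 for GAC1 and PIG2, against 4 for GSY1, 6 for GSY2 and GDB1, and 7 for GLG1 and GPH1. The level moved from 1202 at 41.54 degrees to 3675 at 53.41 and 7671 at 65.28 degrees, and it was still at 79.4% of its highest value at 243.3 degrees. Its fitted range was 1.92 ± 0.35 with a peak at 196 ± 10.7 degrees (SE, adjusted p = 5.12e-05, limma). Its highest values approached the upper part of the intensity scale, where the highest deposited value of any probe set was 24502, and whether the signal is compressed there was not tested.

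The glycogenin genes also differed in shape. GLG1 was lowest at 29.67 degrees with a normalized intensity of 272, had a median of 1355 and was highest at 124.62 degrees with 2519.7. GLG2 was lowest at 41.54 degrees with 543, had a median of 2714 and was highest at 112.75 degrees with 3498. GLG1 came down steadily after its maximum and was at 62.7% of it at 243.3 degrees, whereas GLG2 stayed nearly level, with 86.1% at that angle. Fitted ranges were 2.24 ± 0.23 for GLG1 with a peak at 186.05 ± 5.88 degrees (SE, adjusted p = 4.84e-09, limma) and 1.58 ± 0.26 for GLG2 with a peak at 208 ± 9.52 degrees (SE, adjusted p = 1.07e-05, limma). Within batches 1 and 2 they were 1.70 and 2.86 for GLG1, and 1.29 and 2.02 for GLG2.

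The breakdown genes rose in the same part of the cycle as the synthesis genes. GPH1, which encodes phosphorylase, was lowest at 41.54 degrees with a normalized intensity of 1004, had a median of 7408 and was highest at 148.35 degrees with 11509.5. GDB1, which encodes the debranching enzyme, was also lowest at 41.54 degrees, with 749.5, had a median of 4603 and was highest at 124.62 degrees with 9411. Both made their largest step between 53.41 and 65.28 degrees, within batch 1, by 1.13 for GPH1 and 1.40 for GDB1 on the log2 scale. GPH1 then fell slowly and GDB1 faster: at 219.56 degrees GPH1 stood at 71.4% of its highest value and GDB1 at 52.5% of its own.

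Fitted ranges of the breakdown genes were 1.87 ± 0.31 for GPH1 with a peak at 200.7 ± 9.81 degrees (SE, adjusted p = 1.58e-05, limma) and 1.98 ± 0.31 for GDB1 with a peak at 180.001 ± 9.12 degrees (SE, adjusted p = 5.17e-06, limma). Within batches 1 and 2 they were 1.57 and 2.33 for GPH1, and 1.38 and 2.66 for GDB1. Both ranges lie inside the span of the synthesis enzymes, from 1.58 to 2.38.

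Among the phosphatase subunit genes, GAC1 was lowest at 29.67 degrees with a normalized intensity of 1061, had a median of 4363 and was highest at 148.35 degrees with 5562. PIG2 was lowest at 41.54 degrees with 669, had a median of 3459 and was highest at 172.09 degrees with 4461. These profiles had the highest correlation of all 45 pairs of the 10 genes (r = 0.99 over 31 arrays that they share), with fitted ranges of 1.41 ± 0.20 for GAC1 at 200.9 ± 8.16 degrees and 1.72 ± 0.24 for PIG2 at 198.6 ± 8.09 degrees (SE, adjusted p = 9.36e-07 and 8.04e-07, limma).

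PIG1 had the smallest range and the latest fitted peak of the 10 genes. Its normalized intensity was lowest at 41.54 degrees with 393, had a median of 940.1 and was highest at 231.43 degrees with 1229, a span of 3.13-fold. Its fitted range was 0.83 ± 0.13 with a peak at 234 ± 9.11 degrees (SE, adjusted p = 7.24e-06, limma), 0.97 and 0.81 within batches, at percentile 68.7 of all ranges. From 60 to 120 degrees PIG1 averaged 9.48 ± 0.36 on the log2 scale (SD, n = 5 arrays) and from 180 to 240 degrees 10.06 ± 0.12 (SD, n = 5 arrays), whereas PIG2 averaged 11.59 ± 0.35 and 11.88 ± 0.10 in these windows. PIG1 and GSY1 had the lowest correlation of the 45 pairs (r = 0.46).

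The order of the rise was read from the angle at which each gene crossed the midpoint between its lowest and highest log2 value, interpolated between arrays 11.87 degrees apart. GSY1 crossed at 51.9 and GLC3 at 53.2 degrees, followed by GAC1 and PIG2 at 59.9 degrees each, GDB1 at 62.3, GPH1 at 69.4, GLG2 at 71.6, GLG1 at 72.3, PIG1 at 75.5 and GSY2 at 75.9 degrees. Neighbours in this order were closer than the sampling step and are not resolved. GSY1 preceded GPH1 by 17.5 degrees, or 5.85 min, and GSY2 by 24.0 degrees, or 7.99 min, more than the step. Over 4 scalings of the arrays these leads were 12.2 to 19.2 degrees before GPH1 and 13.3 to 24.6 degrees (4.43 to 8.21 min) before GSY2. The synthesis enzymes did not rise as a group before or after the breakdown enzymes. With quantile normalization GSY1 and GLC3 crossed first, while GLG1, GLG2 and GSY2 crossed within a step of GPH1. These angles carry no error, since each comes from 1 rise, and over the 4 scalings they ranged from 51.0 to 51.9 degrees for GSY1, 52.8 to 72.3 degrees for GLG1, 63.1 to 71.6 degrees for GLG2, 63.2 to 70.8 degrees for GPH1 and 64.3 to 76.3 degrees for GSY2. Without scaling, GLG1 and GLG2 crossed before GPH1. GLG1 also did so with median scaling, at 64.4 against 70.8 degrees. With spike scaling it crossed at 52.8 against 67.4 degrees, more than a step before GPH1. Only with quantile normalization did GLG1 cross after GPH1. With quantile normalization GSY1 and GLC3 crossed between the arrays at 41.54 and 53.41 degrees, which lie in batches 2 and 1. GPH1 and GSY2 crossed between arrays of batch 1. All arrays from 53.41 to 89.01 degrees belong to batch 1 and those from 100.88 to 148.35 degrees to batch 2. Part of the rise and of the leads of GSY1 thus cannot be told apart from steps between batches.

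**Figure D3:**
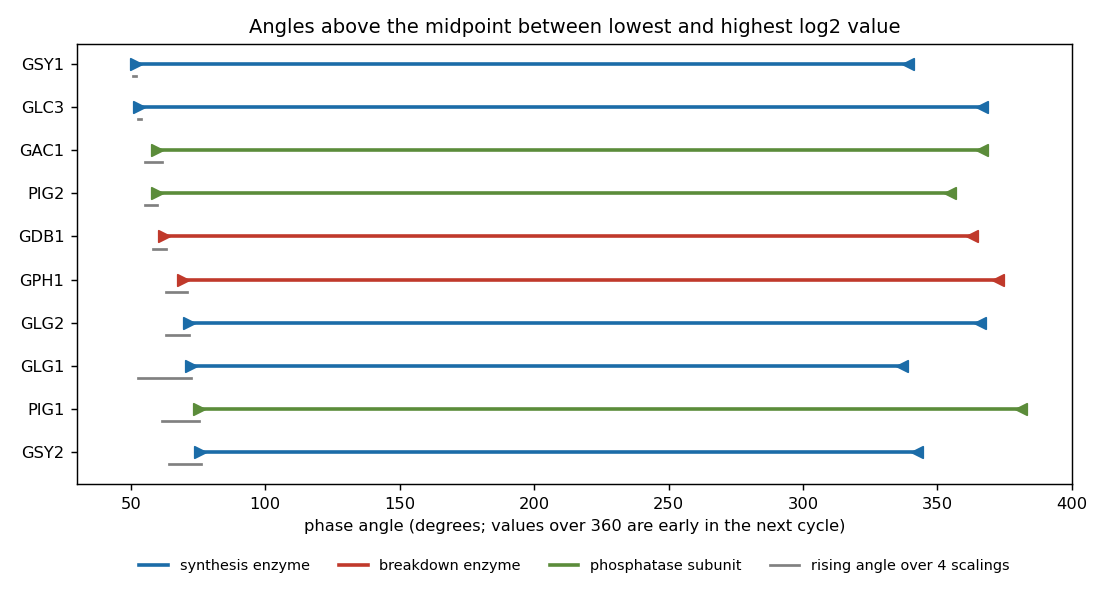
Each line runs from the angle at which a gene crossed the midpoint of its log2 values upward (right-pointing marker) to the angle at which it crossed it downward (left-pointing marker), in degrees, with genes from the earliest rise at the top to the latest at the bottom, and grey bars give the upward angle over 4 scalings. GSY1 and GLC3 rise first, at 51.9 and 53.2 degrees, and PIG1 falls last, at 381 degrees, while the grey bars of the later genes overlap.

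The fall was spread more widely, and its order depended on the scaling. GLG1, GSY1 and GSY2 dropped below their midpoints at 337, 339 and 342 degrees, PIG2 at 355 degrees, GDB1, GLG2, GAC1 and GLC3 at 363, 366, 367 and 367 degrees, and GPH1 and PIG1 at 372 and 381 degrees, where angles over 360 degrees were read from the first arrays of the series. Over the 4 scalings the angle of the fall ranged from 337 to 357 degrees for GLG1, 339 to 359.7 degrees for GSY1, 340.4 to 365 degrees for GSY2 and 346 to 369 degrees for GDB1, so the order of these genes is not settled, whereas PIG1 (381 to 384 degrees) fell last and GPH1 (371 to 380.1 degrees) next to last in each. The time above the midpoint was 88.2 to 101 min for GLG1 and 103 to 106 min for GLC3 over the scalings.

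Synthesis and breakdown genes were then compared on the same arrays, where the scaling of an array cancels or nearly so. As a description, the mean of the 5 synthesis enzymes, centred per gene, ran from -2.27 at 29.67 degrees to 0.96 at 124.62 degrees on the log2 scale, and that of the 2 breakdown enzymes from -2.52 at 41.54 degrees to 1.04 at 124.62 degrees. The difference, synthesis minus breakdown, had a fitted range of 0.13 ± 0.12 (SE) with 1 cosine per cycle. This fitted range cannot be set against the extremes of the means, which are values of single arrays. Among single arrays the lowest difference was -0.49, at 362.01 degrees, and the highest 0.80, at 53.41 degrees. That is a narrower span than that of either mean. The larger departure of the difference from 0 was a short one on the rising side. A smaller one below 0 came before it, in arrays of both batches. The difference was -0.23 at 350.11 degrees, and -0.39, -0.32 and -0.32 at 5.93, 17.8 and 29.67 degrees. Within batches 1 and 2 the fitted range of the difference was 0.14 and 0.31.

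The gene pairs differed more than the means. For 20 pairs, the log2 difference of 2 genes on the same array was fitted by 1 cosine per cycle and its F statistic set against 100000 permutations of the arrays, two-sided, with adjustment over the 20 pairs. Of the 10 pairs of a synthesis with a breakdown enzyme 7 varied with phase. So did 4 of the 6 pairs of a phosphatase subunit with a breakdown enzyme and all 4 of the remaining pairs, 15 of 20 in all. No other gene pairs were tested, so the share of arbitrary pairs that would pass is not known. Of single probe sets 89.1% varied with phase, and the counts of pairs only describe the chosen 20. GSY2 minus GPH1 had a range of 0.56 ± 0.10 with a peak at 173.97 degrees (SE, adjusted p = 0.00018, permutation test). Its centred value was above 0 on every array from 112.75 to 255.17 degrees and below 0 on every array from 290.77 to 362.01 degrees, with its highest value, 0.43, apart from these at 41.54 degrees. Against GDB1 the same synthase gene peaked later, at 242 degrees, with a range of 0.68 ± 0.12 (SE, adjusted p = 7.5e-05, permutation test). GSY1 minus GPH1 had a larger range, 1.11 ± 0.30 with a peak at 114 degrees (SE, adjusted p = 0.0023, permutation test). It did not pass with serially correlated arrays or beside a linear time trend (adjusted p = 0.202 and 0.0717, permutation test, within 0.00172 to 0.202 over its alternatives). Over 1 cycle the angle rises with time, so a time trend and variation with phase cannot be fully told apart in any pair or gene. GLG2 minus GDB1 had the largest range among synthesis enzymes against GDB1, 0.95 ± 0.13 with a peak at 308 degrees (SE, adjusted p = 6.67e-05, permutation test), and passed in each of 10 distinct settings, where unscaled, median-scaled and spike-scaled arrays count as 1 because a factor per array cancels in a difference. GLG1 minus GPH1, the weakest call among the 7 (range 0.64 ± 0.23 (SE), adjusted p = 0.0336, permutation test), passed in 5 of the 10, with adjusted p-values of 0.00613 to 0.498, and without quantile normalization 6 of the 10 pairs of a synthesis with a breakdown enzyme passed. Of all 20 pairs, PIG1 minus GDB1 had the largest range, 1.64 ± 0.24 with a peak at 336 degrees (SE, adjusted p = 7.5e-05, permutation test), and PIG1 minus GPH1 came next with 1.26 ± 0.23 (SE), PIG1 being the gene with the smallest span between its extreme arrays.

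Allowing for serial correlation in the fit of 1 cosine left fewer calls. With pre-whitened arrays 6 of 20 pairs passed, 5 of them pairs with GDB1. GSY2 minus GPH1 then had a range of 0.52 with an adjusted p of 0.0716 by permutation, within 3.33e-05 to 0.0716 over its alternatives, whereas GSY2 minus GDB1 passed with 0.72 and 0.0451 but not within batch 2, where its adjusted p of 0.173 was the highest over its alternatives, the lowest being 3.33e-05. Within batch 1 11 of 20 pairs passed, and within batch 2 12 of 20.

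Pairs that differ briefly are missed by 1 cosine per cycle. GLC3 minus GPH1 had a range of 0.16 ± 0.24 in that fit (SE, adjusted p = 0.801, permutation test, 0.0693 to 0.957 over its alternatives), yet the centred difference was -1.03 at 29.67 degrees, -0.05 at 41.54 degrees, 1.25 at 53.41 degrees and 1.18 at 65.28 degrees. At 65.28 degrees GLC3 had reached 59.7% of its highest value and GPH1 23.7% of its own. With the first 3 harmonics tested together, an alternative added after the data were seen, GLC3 minus GPH1 passed (adjusted p = 0.000653, permutation test; 0.0453 with serially correlated arrays). In that fit 19 of 20 pairs passed, and 18 with serially correlated arrays, where GLG1 minus GPH1 (adjusted p = 0.0808, permutation test) and GLG1 minus GDB1 (adjusted p = 0.361, permutation test) did not. The share of other gene pairs that would pass this fit was not tested.

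**Figure D4:**
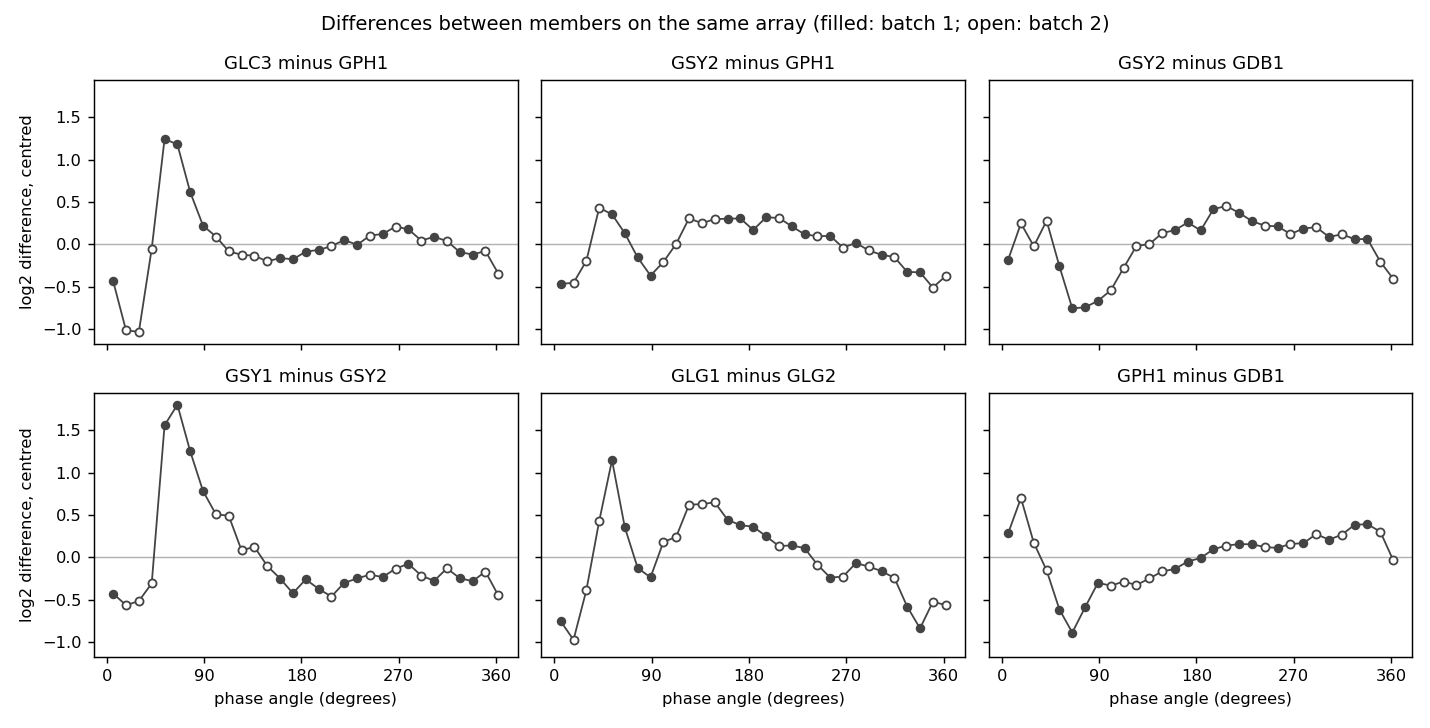
Log2 difference of 2 genes on the same array, centred on its mean over 31 arrays, against the phase angle in degrees, with filled points for batch 1 and open points for batch 2. GLC3 minus GPH1 falls to -1.03 at 29.67 degrees and rises to 1.25 at 53.41 degrees. GSY1 minus GSY2 rises to 1.80 at 65.28 degrees, with 1.56 at 53.41 and 1.25 at 77.14 degrees. GPH1 minus GDB1 is lowest, at -0.89, at 65.28 degrees and climbs slowly afterwards.

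The breakdown enzymes and the paralogs differed from each other as much as synthesis from breakdown. GPH1 minus GDB1 had a range of 0.70 ± 0.12 with a peak at 289 degrees (SE, adjusted p = 6.67e-05, permutation test). The ranges within batches 1 and 2 were 0.88 and 0.59, and this pair passed in all 10 distinct settings (highest adjusted p 0.0451). Its centred value was -0.89 at 65.28 degrees and 0.39 at 338.24 degrees, both on batch 1 arrays, so the debranching enzyme transcript was high relative to phosphorylase early in the rise and low relative to it late in the cycle.

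GSY1 minus GSY2 had a range of 0.96 ± 0.26 with a peak at 84.0 degrees (SE, adjusted p = 0.0023, permutation test), and of 1.64 and 0.52 within batches 1 and 2. It did not pass within batch 2 (adjusted p = 0.0826, permutation test), beside a linear time trend (adjusted p = 0.0591) or with serially correlated arrays (adjusted p = 0.178), and its adjusted p-values ran from 0.000909 to 0.178 over its alternatives. In batch 1 the centred difference ran from -0.43 at 5.93 degrees to 1.80 at 65.28 degrees. The isoforms have similar sequences, and whether their probe sets share signal was not tested.

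GLG1 minus GLG2 had a range of 0.98 ± 0.17 with a peak at 148.51 degrees (SE, adjusted p = 7.5e-05, permutation test). Within batches 1 and 2 the range was 0.93 and 1.06, and the pair just missed the threshold in batch 1 (adjusted p = 0.0505, permutation test, the highest over its alternatives, the lowest being 7.5e-05). GLG1 was above its mean relative to GLG2 on every array from 100.88 to 231.43 degrees, with the highest value, 1.15, at 53.41 degrees. PIG1 minus PIG2 had a range of 1.15 ± 0.20 with a peak at 354 degrees (SE, adjusted p = 6.67e-05, permutation test), and of 0.92 and 1.61 within batches 1 and 2. It did not pass with serially correlated arrays (adjusted p = 0.0661, permutation test, within 3.33e-05 to 0.0661 over its alternatives). PIG1 was highest relative to PIG2 at 17.8 degrees, by 1.46, where it had fallen less.

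The profiles had faster components than 1 cosine per cycle. Terms at 2 and 3 times the angle passed limma's moderated F-test for 10 of 10 genes, against 86.1% of all probe sets, with adjusted p-values from 7.87e-14 for GSY2 to 7.8e-05 for PIG1. Within batch 1 these terms passed for 9 of 10 genes, against 63% of all probe sets, and not for PIG1 (adjusted p = 0.0553, limma, within 1.32e-05 to 0.0553 over its alternatives). Without a trend term, the fitted peak of 1 cosine over all arrays lay between 170 and 210 degrees for 9 genes. The curve with 3 harmonics was highest earlier, between 110 and 140 degrees, for 9 genes, all except PIG1 at 231 degrees. The shape is a short trough, a rise within a few arrays and a long decline.

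The last array, at 362.01 degrees, returned close to the first, at 5.93 degrees, 2 h earlier. GSY1 had a normalized intensity of 531 on the last and 521 on the first array, GSY2 1548 and 1496, GLC3 3916 and 3786, and GPH1 4008 and 4129.6. Differences, last minus first, ran from -0.13 for GLG2 to 0.27 for GDB1 on the log2 scale, with a median size of 0.06 over the 10 genes and 0.06 over all probe sets tested. These arrays lie in batches 2 and 1 and there is 1 of each, so this is a comparison of values without a test.

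Of 15 listed genes of glycogen control 14 varied with phase and 4 did so by 2-fold or more, shares close to the 89.1% and 23.1% of all probe sets. Fitted peaks lay between 120 and 240 degrees for 13 of them and between 300 and 60 degrees for 1, the PAS kinase gene PSK2, while 49.2% and 39.8% of all probe sets that passed peaked in these windows. GIP2, which encodes a putative Glc7 subunit related to Pig2, had a larger range than any of the 10 genes, 3.34 ± 0.38 at 198.6 degrees (SE, adjusted p = 2.93e-08, limma), with normalized intensities from 142 at 41.54 degrees to 3639.6 at 148.35 degrees. GLC7, the phosphatase itself, varied by 0.33 ± 0.04 (SE). PCL8 and PCL6, genes for cyclins of the kinase Pho85, varied by 1.41 ± 0.19 and 0.94 ± 0.11 (SE). The PAS kinase gene PSK1 varied by 1.40 ± 0.21 and the sporulation glucoamylase gene SGA1 by 1.52 ± 0.19 (SE).

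Of 6 tested genes that supply glucose phosphates and UDP-glucose 5 varied, 4 by 2-fold or more, against 89.1% and 23.1% of all probe sets. These 4 peaked between 120 and 240 degrees, as did 47.2% of all probe sets with such a range. PGM2, the main phosphoglucomutase gene, varied by 2.58 ± 0.36 at 176.4 degrees, the glucokinase gene GLK1 by 1.26 ± 0.19, the hexokinase gene HXK1 by 1.15 ± 0.20 and UGP1, which makes UDP-glucose, by 1.09 ± 0.20 (SE). HXK2, the hexokinase gene of fermenting cells, peaked in the opposite part of the cycle, at 352 degrees, with a range of 0.70 ± 0.07 (SE), and PGM1 did not pass (range 0.18, adjusted p = 0.162, limma).

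All 7 trehalose genes varied, 6 by 2-fold or more, against 89.1% and 23.1% of all probe sets, and all 7 had fitted peaks between 120 and 240 degrees, against 49.2% of the probe sets that passed. TSL1, a regulatory subunit gene of trehalose synthase, varied by 2.65 ± 0.38, the phosphatase subunit gene TPS2 by 2.08 ± 0.30, TPS1 by 1.96 ± 0.32 and TPS3 by 1.43 ± 0.23, while among genes of breakdown ATH1 varied by 2.15 ± 0.32, NTH2 by 1.17 ± 0.19 and NTH1 by 0.79 ± 0.12 (SE). All 6 listed stress regulator genes varied and peaked between 120 and 240 degrees, with the same shares of all probe sets as background, 2 of them by 2-fold or more: GIS1 by 1.71 ± 0.22 and the kinase gene YAK1 by 1.36 ± 0.20 (SE). MSN2 and HSF1 varied by 0.53 ± 0.06 and 0.60 ± 0.07 (SE).

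The genes most like GSY2, among 5372 other genes, by Pearson's r of normalized log2 values over the 31 arrays, were RTN2, YMR181C, VPS73, COQ9 and YJR096W, with r of 0.99 each. Those most like GPH1 were GCY1, OM45, GOR1, ARA1 and UIP4, also with r of 0.99 each. No gene was on both lists, but GSY2 and GPH1 themselves had r of 0.96, and the overlap to expect of lists this short was not tested. OM45 and ARA1 were also among the genes most like the synthesis gene GLG2, picked in the same way. The lists for GSY1, GLC3 and GLG1 held none of the genes listed for GPH1. The 45 correlations among the 10 genes themselves had a median of 0.92 and a highest value of 0.985, for GAC1 with PIG2. The listed genes were picked as the highest among 5372, so their r cannot be set against these. All these values come from the same arrays and normalization.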

How the data were processed

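The authors deposited a linear signal intensity per probe set and array, from Affymetrix's GCOS per the submitters' processing notes; its version, its scaling and the genome build are not given in these sources. Probe sets were named from the platform annotation, with symbols updated through a gene table of assembly R64 (12 changed), and no coordinates were used. Log2 intensities were quantile-normalized over 5498 S. cerevisiae probe sets, and 76 with a median at or under 17.0, percentile 95 of probe sets of other species, were left out, leaving 5422 for 5382 genes. All 10 glycogen genes passed this filter. The phase test was a moderated F-test in limma 3.58.1 (R 4.3.3), with SEs of ranges and peaks by the delta method, and pairs by permutation in Python 3.11.15, where 1e-05 is the smallest p possible. Pre-whitening used the median residual correlation of neighbouring arrays, and for a pair its own. Tests were checked on simulated data, for pairs only with independent noise. That check does not cover the residual correlation of neighbouring arrays in the real pairs, from 0.38 (GLG2 minus GDB1) to 0.71 (PIG1 minus GPH1). Members and lists were chosen with earlier results of these data known. Named are all 10 members; in each related list, the 3 genes with the smallest p and those with 2-fold ranges; and the 5 genes most like GSY2 and GPH1. GLC7, PSK2, PGM1 and REG2 fall outside this rule and were chosen after their values were seen, as was the fit of 3 harmonics. P-values measure the spread of these arrays around a curve over 1 cycle, not recurrence.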

Additional observations from a re-analysis of the deposited data

How the results depend on the processing

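The number of the 10 genes passing the phase test was 10 with the arrays left unscaled, scaled by the median or by spikes, with 16 added before the logarithm, with no filter or a floor 4 times as high, with batch as a term, within each batch, beside a linear time trend, without the array at 41.54 degrees, without the 5 dimmest arrays and without each array in turn. With serially correlated arrays it was 9, and 2919 of 5422 probe sets passed, against 4831. The faster terms passed for 9 genes within batch 1 and for 10 under the other settings. No fitted peak of a gene that passed moved by over 90 degrees, but this bound is loose and some moved by more than their SE. Beside a linear time trend all 10 genes had earlier fitted peaks. GLC3 then peaked at 158.24 degrees, against 196.046 in the main fit, and GPH1 at 166.429 degrees, against 200.671. With the arrays left unscaled PIG1 peaked at 262.913 degrees, against 233.752 in the main fit. Over these settings the range moved most within batches for 8 of the genes, whereas PIG1 had 0.63 beside a linear time trend and 1.09 with spike scaling, and GPH1 had its lowest, 1.55, without the 5 dimmest arrays. The median range of the 10 genes was 1.68 without the array at 41.54 degrees and 1.62 without the 5 dimmest arrays. The count of pairs that varied was 6 with serially correlated arrays, 11 to 16 under the other settings with 1 cosine, and 14 to 16 without each array in turn, against 15. The range of synthesis minus breakdown was 0.31 within batch 2, 0.07 without the array at 362.01 degrees and 0.23 without that at 53.41 degrees, against 0.13. The filter does not touch pairs, and no gene had a further probe set to try. No paired analysis was possible because all arrays form 1 group. The cause of these changes was not tested.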

Other observations

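REG2, which encodes a Glc7 subunit of glucose repression and was singled out here after its values were seen, had a pulse early in the rise of the glycogen genes. Its normalized intensity was 308 at 41.54 degrees and 4898 at 77.14 degrees, on arrays of batches 2 and 1, and it was the listed glycogen control gene that did not pass the fit of 1 cosine per cycle (range 0.94 ± 0.38 (SE), adjusted p = 0.0640, limma). Its terms at 2 and 3 times the angle passed (adjusted p = 3.07e-06, limma).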
